A study of Drosophila melanogaster with 2 samples.

Results

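The small nucleolar RNA (snoRNA) genes of Drosophila melanogaster were examined with the promoters of the genes that carry them. Members were chosen by symbol: every gene of the Ensembl annotation whose symbol starts with "snoRNA:" was taken, which gave 257 of 18277 annotated genes, transposable elements not counted. By their symbols 112 were box C/D genes and 111 were H/ACA genes, and 34 were left unclassed. A host was the shortest gene on the same strand whose span holds the whole snoRNA gene. This gave 82 host genes for 236 snoRNAs, while 21 snoRNAs had no host.

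The data are chromatin immunoprecipitation with sequencing (ChIP-seq) from whole embryos aged 0 to 24 h, with males and females pooled. Both samples come from a stable transgenic strain, CG13123-GFP, that makes the protein CG13123 with GFP at its C terminus, and an antibody to GFP was used. The sources used here do not say what drives the transgene. Embryos without the tag, and the control against which peaks were called, were not analysed here. The samples form 1 group, biological replicates 2 and 3, so there is no contrast of conditions. Read depth is unknown, because the lists of peaks carry no read counts.

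snoRNAs pair with ribosomal and spliceosomal RNA and guide chemical marks onto them. Box C/D snoRNAs direct methylation of the ribose and work with the methyltransferase fibrillarin, while H/ACA snoRNAs direct the change of uridine to pseudouridine and work with the dyskerin homologue Nop60B. In flies most of them are cut out of introns of a host gene, so that the host's promoter drives their transcription. Hosts include genes for ribosomal proteins and the Uhg genes, noncoding transcripts whose introns hold snoRNAs. U3 is a box C/D snoRNA that acts in cleavage of the ribosomal RNA precursor.

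The symbols fit the bases of most classed genes. Of the 112 box C/D genes, 96 had box C, TGATGA with at most 1 mismatch among the first 20 bases, together with box D, CTGA in the last 15 bases. None of the 111 H/ACA genes did, and 107 of them had the ACA tail 3 bases before the end, within 2 bases. The tail was also found in 6 box C/D genes, 3 of which had both boxes as well. Neither feature was found in 13 box C/D and 4 H/ACA genes. Box C/D genes had a median length of 79.5 bases and H/ACA genes of 140 bases. Of the unclassed genes 2 had both boxes and 9 had the tail.

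The 7 snoRNA genes printed here are among the 11 whose start lay within 500 bp of a reproducible peak, so that the classes can be read beside the peak values that follow. Bases are from the Release 6 genome (dm6), 5′ to 3′ on the strand of the gene, with boxes C and D in capitals for box C/D genes and the ACA tail in capitals for H/ACA genes.
snoRNA:Or-CD11a, box C/D, in RpL28, chr3L:3222475-3222541, minus strand: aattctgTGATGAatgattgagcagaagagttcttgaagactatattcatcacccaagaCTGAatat
snoRNA:Me28S-A774b, box C/D, in RpS12, chr3L:13023580-13023652, plus strand: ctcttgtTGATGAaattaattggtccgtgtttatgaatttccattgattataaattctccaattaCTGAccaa
snoRNA:Me18S-C1096, box C/D, in RpL3, chr3R:11222405-11222489, plus strand: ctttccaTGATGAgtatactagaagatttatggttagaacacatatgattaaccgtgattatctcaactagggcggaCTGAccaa
snoRNA:Me18S-G1620, box C/D, in Uhg2, chr2L:9894477-9894544, minus strand: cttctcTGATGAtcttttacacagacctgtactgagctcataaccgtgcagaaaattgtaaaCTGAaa
snoRNA:Me18S-A1576, box C/D, in Uhg2, chr2L:9894795-9894907, minus strand: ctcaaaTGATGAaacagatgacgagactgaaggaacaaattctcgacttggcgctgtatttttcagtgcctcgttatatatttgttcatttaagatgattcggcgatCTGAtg
snoRNA:Psi18S-1275, H/ACA, in RpS29, chr3R:9778398-9778537, plus strand: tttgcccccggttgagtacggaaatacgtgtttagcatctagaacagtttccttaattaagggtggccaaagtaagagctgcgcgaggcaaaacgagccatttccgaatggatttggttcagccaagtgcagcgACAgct
snoRNA:Psi28S-1232, H/ACA, in RpL17, chrX:6743675-6743815, minus strand: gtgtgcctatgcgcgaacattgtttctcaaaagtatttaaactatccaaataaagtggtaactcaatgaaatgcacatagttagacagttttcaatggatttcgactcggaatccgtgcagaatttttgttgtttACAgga

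Each peak carries a signal, the authors' own value, on a scale that the sources used here do not name. The relaxed lists, 1 per replicate and 1 for both replicates together, hold 30000 peaks each, background included. The list past the irreproducible discovery rate, a measure of rank agreement between replicates, holds 2704 peaks with signals of 75.5 and above and a median of 113, and is called the IDR list. Every host and snoRNA peak on it had the same rank there as in the relaxed list of both replicates. A peak called reproducible here is thus a peak on that list, and its agreement between replicates is read from the replicates' values. Signals run lower in replicate 3 than in replicate 2, with list medians of 13.7 and 19.1. Each replicate alone is represented by its own 2704 peaks of highest signal. Genes and snoRNAs are not replicates, and several share a peak, so no test was run over them and the spread is shown as the values of both replicates.

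Few snoRNA genes had a reproducible peak within 500 bp of their own start. Of the 257 snoRNA genes, 11 had an IDR summit within 500 bp of the start (4.28%), against 10.6% of all annotated genes. The count was 13 (5.06%) in the highest peaks of replicate 2, where all genes gave 10.7%, and 8 (3.11%) in those of replicate 3, where all genes also gave 10.7%. A relaxed summit of both replicates lay that close to 107 starts (41.6%), near the 43.8% of all genes. The share of snoRNA starts was thus below that of all genes for strong peaks in both replicates, and close to it in the relaxed list of both together. In the relaxed lists of replicates 2 and 3 it was 44.4% and 33.5%, and the share of all genes was not computed there.

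These 11 starts drew on 9 peaks, and each summit lay upstream of the start. In 6 of the 11 the distance was over 470 bp, close to the limit of the window. Within 200 bp the count was 3 (1.17%), against 7.39% of all genes. Within 1000 bp it was 33 (12.8%), against 12.9% of all genes, so that the lower share of snoRNA starts was no longer seen at that distance. No IDR summit lay inside a snoRNA gene, while 12 relaxed summits of both replicates, 11 of replicate 2 and 16 of replicate 3 did.

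The strongest of these peaks belonged to Uhg4 and RpL28. The Uhg4 peak lay 173 bp upstream of snoRNA:Psi28S-2949 and 486 bp upstream of snoRNA:Or-aca5, an orphan, that is a snoRNA with no assigned target. The RpL28 peak lay 496 bp upstream of the orphan snoRNA:Or-CD11a. snoRNA:Psi18S-1275, named for its site in 18S ribosomal RNA, lay 348 bp downstream of the RpS29 summit, and snoRNA:Me28S-A774b, named for a site in 28S ribosomal RNA, lay 283 bp downstream of that of RpS12. The start of snoRNA:Psi28S-1232 was 474 bp from the RpL17 summit and that of snoRNA:Me18S-C1096 483 bp from the RpL3 summit. The Uhg2 summit was 129 bp from snoRNA:Me18S-A1576 and 492 bp from snoRNA:Me18S-G1620. These 9 snoRNAs all had hosts, and their peaks are the hosts' promoter peaks. The other 2 had no host.

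Those 2 peaks lay on arm 2R. The summit at snoRNA:185 was 55 bp upstream of its start, with a signal of 132 for both replicates, 87.9 in replicate 2 and 42.6 in replicate 3. No other snoRNA start had an IDR summit as near. The gene is among the unclassed symbols. The other summit lay 476 bp upstream of snoRNA:Or-ACA6, with 115.9 for both replicates and 56.8 in replicate 3. In replicate 2 a peak of 55.7 lay within 500 bp of its neighbour snoRNA:Or-CD13, and the highest within 500 bp of snoRNA:Or-ACA6 was 13.4. Whether either peak belongs to a transcript of these snoRNAs was not tested.

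Of the 21 snoRNAs without a host, 12 had a relaxed summit of both replicates within 500 bp of the start (57.1%), against 43.8% of all genes. Apart from snoRNA:185 and snoRNA:Or-ACA6 these were weak. snoRNA:Me18S-A1806 had a signal of 40.2, snoRNA:Psi28S-2622 of 36.9, and snoRNA:2R:9445205 and snoRNA:2R:9445410 shared a peak of 34.3. snoRNA:Psi28S-1153 and snoRNA:U3:54Aa stood at 32.8 each, and snoRNA:U3:54Ab at 31.3. The remaining values were 25.9 for snoRNA:Psi18S-301, 25.2 for snoRNA:Or-aca4 and 24.1 for snoRNA:Psi28S-3342. The third U3 gene, snoRNA:U3:9B, had a relaxed peak in replicate 3 of 11.7 and none within 500 bp in the other lists. No U3 gene thus had a peak near the IDR level of 75.5.

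Host promoters had such peaks far more often than the snoRNA starts. Of the 82 hosts, 32 had an IDR summit within 500 bp of a transcription start site, or TSS (39.0%), against 12.3% of all protein-coding and noncoding RNA genes. Any annotated TSS of a host was searched, and with the host's 5′ end alone the count was 29. The highest peaks of replicate 2 marked 34 hosts (41.5%, against 12.4%) and those of replicate 3 marked 37 (45.1%, against 12.6%), and 31 hosts were marked in both. A relaxed summit of both replicates was present at 64 hosts (78.0%, against 46.3%). Of the 32 hosts on the IDR list, 29 were also among the highest peaks of each replicate alone. The exceptions were pths, absent from replicate 2's highest peaks, and gcl and Uhg2, absent from those of replicate 3.

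Of those peaks 23 (71.9%) had the summit within 100 bp of the host's TSS, against 31.1% of all genes with such a peak. The summits were chosen for lying within 500 bp of a host TSS, and most hosted snoRNAs start farther from it than that. That all 32 were nearer to the TSS than to any hosted snoRNA start is therefore largely set by the choice, and nothing is read from it. The median summit was 74 bp upstream of the TSS, with positions relative to the TSS from -393 bp at Stt3A to 28 bp at RpL3. The median distance to the nearest hosted snoRNA was 885 bp. In 29 of the 32 the summit was upstream, and the 3 exceptions were drn, RpS29 and RpL3. Over all 2125 genes with such a peak 87.1% were upstream, so that the side is shared by promoters at large. For 27 of the 32 the closest annotated TSS was the host's own. At Irbp, RpS20, RpL22 and Stt3A it was that of mgr, CG17271, lncRNA:CR44966 and bves in turn, and these peaks cannot be assigned to 1 of the pair.

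**Figure D1:**
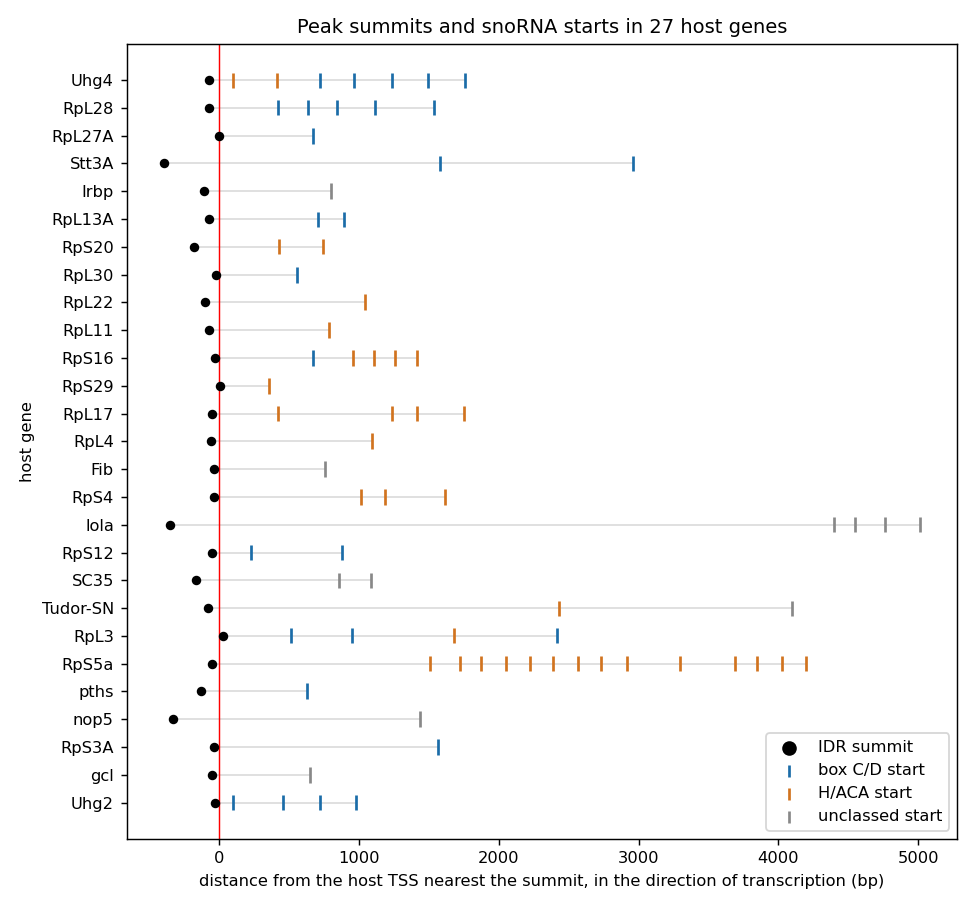
Each row is 1 of 27 host genes with an IDR peak, ordered by peak signal, and the horizontal axis is the distance in bp from its nearest TSS (red line) in the direction of transcription. Dots are summits and ticks are snoRNA starts by class. Every summit lies to the left of every snoRNA start, and Msp300, Dys, drn and hts, whose snoRNAs lie farther away, are not drawn.

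The snoRNAs themselves lie mostly beyond the reach of these peaks. The median distance from a hosted snoRNA's start to the nearest TSS of its host was 1422 bp (quartiles 755 and 2637), and 201 of 236 lay over 500 bp away. Of the 35 within 500 bp, 8 had an IDR summit near the start. Of the 201 farther away, 1 did, snoRNA:Me18S-C1096, which begins 511 bp from the TSS of RpL3. By the annotation 214 snoRNAs lay in introns alone, 16 in an intron of some transcripts and an exon of others, and 6 in exons alone.

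Hosts that encode ribosomal proteins were marked most often among the kinds of host. An IDR summit was present at 16 of 28 ribosomal protein hosts (57.1%), 14 of 44 other protein-coding hosts (31.8%) and 2 of 10 noncoding hosts. Over all protein-coding and noncoding RNA genes together the share was 12.3%. The counts were 17, 15 and 2 in replicate 2's highest peaks and 19, 16 and 2 in those of replicate 3, in the same order. Ribosomal protein genes that host no snoRNA stood at 36 of 65 (55.4%), close to those that do. The summit was within 100 bp of the TSS at 15 of the 16 ribosomal protein hosts and at 33 of the 36 ribosomal protein genes without a snoRNA, against 6 of the 14 other protein-coding hosts and 31.1% of all genes with such a peak. The median summit position was -52 bp from the TSS at the ribosomal protein hosts and -22.5 bp at the ribosomal protein genes without a snoRNA, and the summit lay upstream at 14 of the 16 and at 28 of the 36. Median signals were 156 for the ribosomal protein hosts, 126 for the ribosomal protein genes without a snoRNA, 122 for the other protein-coding hosts and 122 for all genes with such a peak. The kind of host depends on taking the shortest gene. lncRNA:CR42491 and lncRNA:CR45184 count as noncoding hosts without an IDR summit, but each lies inside a longer host on the same strand. For lncRNA:CR42491 that longer host is RpL22, which had an IDR summit.

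**Figure D2:**
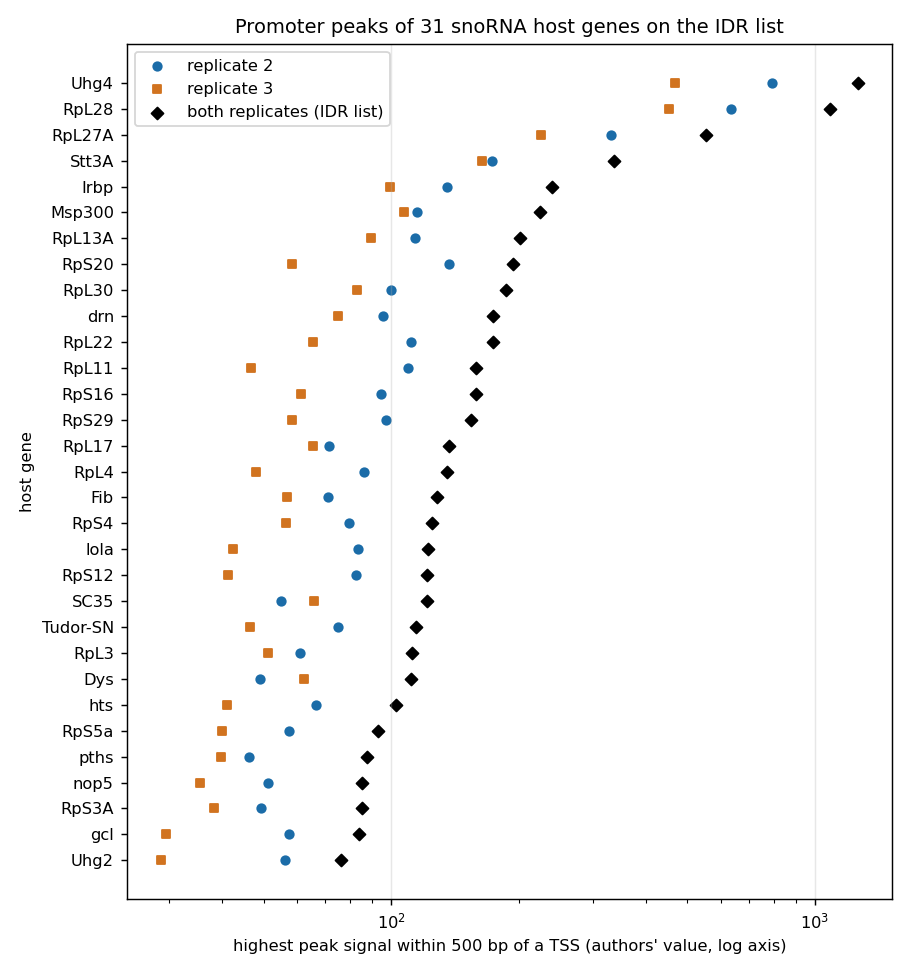
Highest peak signal within 500 bp of a TSS (horizontal log axis, the authors' value) for 31 of the 32 hosts on the IDR list, with circles for replicate 2, squares for replicate 3 and diamonds for both replicates together. Uhg4 (1261) and RpL28 (1087) lead, and circles lie to the right of squares for all hosts drawn but SC35 and Dys.

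Among hosts for proteins of the large ribosomal subunit, RpL28 led. Its signal was 634 in replicate 2 and 452 in replicate 3, 1087 for both, rank 7 in every relaxed list, and it carries 5 box C/D snoRNAs. RpL27A, with 1 box C/D snoRNA, had 331 and 225 in replicates 2 and 3. RpL13A had 114 and 89.9, and RpL30 100.1 and 83.0, both with box C/D snoRNAs alone. RpL28 and RpL27A were thus the only ribosomal protein hosts above 500 for both replicates together. The hosts of H/ACA snoRNAs alone overlapped the box C/D hosts RpL13A and RpL30 in replicate 2. RpL22 had 112 and 65.3, RpL11 109.9 and 46.6, RpL17 71.3 and 65.3, and RpL4 86.4 and 48.0. RpL3, which holds 3 box C/D and 1 H/ACA snoRNAs, had 60.9 and 51.2.

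Hosts for proteins of the small subunit reached lower signals. RpS20, with 2 H/ACA snoRNAs, had 137 in replicate 2 and 58.3 in replicate 3. RpS29 had 97.1 and 58.4, RpS16, with 4 H/ACA and 1 box C/D snoRNAs, 94.8 and 61.4, and RpS4 79.4 and 56.6. RpS12, with 2 box C/D snoRNAs, had 82.9 and 41.3. RpS5a carries 14 H/ACA snoRNAs and had 57.4 and 40.0, and RpS3A, on chromosome 4, had 49.3 and 38.3. Replicate 2 was the higher at each of them.

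Other protein-coding hosts on the IDR list have varied roles. Stt3A, a catalytic subunit of the oligosaccharyltransferase, had 173 in replicate 2 and 163 in replicate 3. Irbp, the fly Ku70, which binds DNA ends, had 136 and 99.4, and Msp300, a nesprin of the nuclear envelope and muscle, had 115.3 and 107. drn had 95.8 and 75.1. The transcription factor gene lola had 83.5 and 42.4. The splicing factor gene SC35 had 54.8 and 65.9, Tudor-SN, a staphylococcal nuclease domain protein, 75.1 and 46.4, and the dystrophin gene Dys 49.1 and 62.4. SC35 and Dys were the only hosts on the IDR list with the higher signal in replicate 3. hts, the fly adducin, had 66.3 and 41.1, pths 46.2 and 39.8, and germ cell-less, gcl, 57.5 and 29.4. At Msp300 and Dys the snoRNA begins 93871 and 125111 bp downstream of the TSS with the peak. The host's TSS nearest the snoRNA was another, 50634 and 16986 bp away. At drn, hts and lola the nearest hosted snoRNA began 13614, 10413 and 4400 bp from the TSS with the peak. Another TSS of the host was nearer to that snoRNA, at 1227, 2994 and 2238 bp. Some ribosomal protein hosts with several TSSs, such as RpL28, likewise had a TSS nearer to a snoRNA than that with the peak.

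The noncoding hosts ranged from the top to the floor. Uhg4 had 792 in replicate 2, 469 in replicate 3 and 1261 for both, rank 4 of 30000 and the highest among all hosts. It carries 5 box C/D and 2 H/ACA snoRNAs. Uhg2, with 4 box C/D snoRNAs, had 56.2 and 28.7, and at 76.3 for both it was the weakest host on the IDR list. Uhg3, with 40.7 and 28.4, fell just short of the list at 72.6. Uhg1, with 16 box C/D snoRNAs, had 36.0 and 17.9 in the replicates and 32.1 for both, and Uhg5, with 11, had 29.9 in replicate 2 and 29.0 for both.

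Hosts just below the IDR list were close to it in signal. After Uhg3 came kis with 71.2 for both replicates, eEF1alpha1 with 70.8, RpL7A with 70.7 and RpS7 with 68.5. eEF1alpha1, a translation elongation factor gene, was among the highest peaks of each replicate alone, with 51.1 and 45.0. kis, a chromatin remodeller gene, had 48.6 and 29.0, RpL7A 42.4 and 26.8, and RpS7, with 7 H/ACA snoRNAs, 25.8 and 42.6. RpS7 was higher in replicate 3, unlike the other 4.

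Hosts that carry many snoRNAs differed widely in their promoter peaks. Of the 14 with 5 or more snoRNAs, 4 had an IDR summit, 7 had a relaxed summit of both replicates alone, from 22.4 at Arpc2 to 68.5 at RpS7, and 3 had neither. The 5 hosts with the most snoRNAs carry 73 in all, and RpS5a alone among them was on the IDR list. Arpc2, which encodes a subunit of the Arp2/3 actin complex, has 17 H/ACA snoRNAs and a relaxed peak of 22.4 for both replicates, with 11.6 in replicate 3 and none within 500 bp in replicate 2. dom, a chromatin remodeller gene with 12 H/ACA and 3 box C/D snoRNAs, had 35.0, with 29.7 in replicate 2 and none in replicate 3. An IDR summit was present at 16 of 45 hosts with 1 snoRNA (35.6%), at 12 of 23 with 2 to 4 (52.2%) and at 4 of 14 with 5 or more (28.6%), beside 12.3% of protein-coding and noncoding RNA genes. Those 4 were Uhg4, RpL28, RpS16 and RpS5a. The counts were 17, 13 and 4 in replicate 2's highest peaks and 17, 15 and 5 in those of replicate 3. The 32 hosts with an IDR peak held 80 of the 236 hosted snoRNAs (33.9%), a lower share than the 39.0% of hosts.

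**Figure D3:**
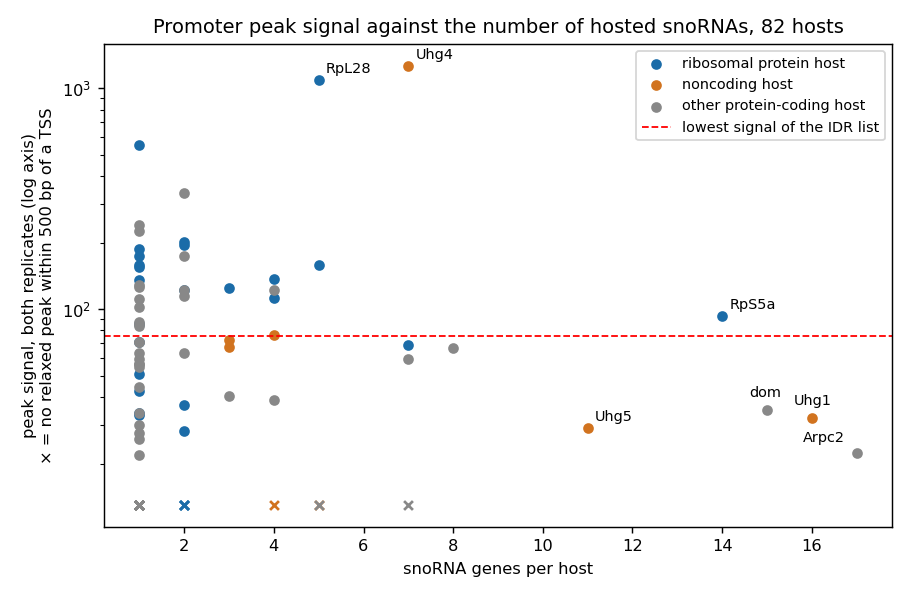
Peak signal for both replicates within 500 bp of a TSS (vertical log axis) against the number of snoRNA genes per host, for 82 hosts coloured by kind. Crosses are hosts with no relaxed peak there, and the dashed line is the lowest signal of the IDR list, 75.5. Of the 5 hosts at 11 or more snoRNAs, RpS5a alone lies above the line.

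The class difference at the snoRNA starts depended on the window. Within 500 bp it was smaller than the spread between replicates. Within 1000 bp 20 box C/D starts (17.9%) and 8 H/ACA starts (7.21%) had an IDR summit, a difference of 10.6 percentage points. The share of all genes at that distance was 12.9%, between the 2 classes. Several of these snoRNA starts share a peak, as at RpL28 and Uhg2. For this window the difference was not computed in each replicate or with each host counted once. Within 500 bp 10.6% of all genes had an IDR summit. Of the snoRNA starts, 5 of 112 box C/D (4.46%) and 4 of 111 H/ACA (3.60%) did, a difference of 0.861 percentage points. In replicate 2's highest peaks the counts were 8 (7.14%) and 4 (3.60%), and in replicate 3's they were 2 (1.79%) and 4 (3.60%), so that the order turned between replicates. The difference was 3.54 and -1.82 percentage points, with a standard deviation between replicates of 3.79. A relaxed summit of both replicates lay near 49 box C/D starts (43.8%) and 43 H/ACA starts (38.7%), with 45 and 51 in replicate 2 and 43 and 33 in replicate 3. Over all genes the share for both replicates was 43.8%.

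At the host promoters the H/ACA share was the higher in the IDR list and in each replicate's highest peaks. In the IDR list the difference per snoRNA was smaller than the spread between replicates. Of the 39 hosts of box C/D snoRNAs 15 had an IDR summit (38.5%), and of the 29 hosts of H/ACA snoRNAs 13 did (44.8%), with 6 hosts carrying both classes. The share of all protein-coding and noncoding RNA genes was 12.3%. The counts were 16 (41.0%) and 13 (44.8%) in replicate 2's highest peaks and 18 (46.2%) and 14 (48.3%) in replicate 3's. Per snoRNA, 32 of 103 hosted box C/D genes (31.1%) and 36 of 105 hosted H/ACA genes (34.3%) sat in a host with an IDR peak. The difference was -3.22 percentage points, against -2.25 and -6.97 in the replicates, with a standard deviation between replicates of 3.34. In the relaxed lists the gaps were wider in part. A relaxed summit of both replicates was present at 29 of 39 box C/D hosts (74.4%) and 25 of 29 H/ACA hosts (86.2%), with 76.9% and 96.6% in replicate 2 and 76.9% and 79.3% in replicate 3. Over all protein-coding and noncoding RNA genes the share for both replicates was 46.3%. Per snoRNA, the shares were 76.7% and 93.3% for both replicates and 67.0% and 81.0% in replicate 3. In replicate 2 they were nearly equal and the order turned, with 84.5% and 83.8%. The 14 snoRNAs of RpS5a are part of the H/ACA count. The IDR difference per snoRNA turned to 1.36 among the 1352 IDR peaks of highest signal. It was -0.287 with the longest gene taken as host and -0.673 between symbols with Me and with Psi alone. No test was run on the class difference.

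**Figure D4:**
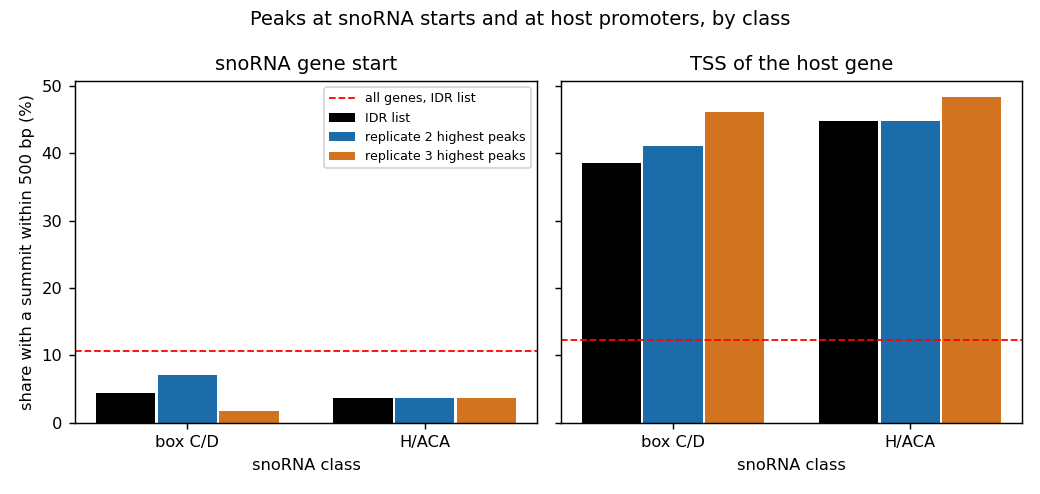
Share of genes (percent) with a summit within 500 bp of the snoRNA start, left, and of host genes with a summit within 500 bp of a TSS, right, for box C/D and H/ACA. Bars are the IDR list and the highest peaks of replicates 2 and 3, and the dashed line is the IDR share of all genes, 10.6% left and 12.3% right. Bars at starts lie below the line and bars at host promoters above it. At starts the order of the classes turns between replicates.

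Replicates ranked the host promoters alike. Over the 59 hosts with a relaxed peak in each replicate, Spearman's rho between the signals was 0.822, and Pearson's r of their log2 values was 0.896. This is a description across genes that share both libraries. The signal was higher in replicate 2 at 30 of the 32 hosts on the IDR list, by a median of 1.44 times, close to the 1.41 times over the 2586 IDR peaks with a relaxed peak in both. The signal for both replicates was close to the sum of theirs, with a median of 1.00 times that sum over these peaks.

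Some hosts had a peak in a replicate and none in the list of both. RpL14, with 2 box C/D snoRNAs, had 82.8 in replicate 3, rank 444 there, and no relaxed peak within 500 bp in replicate 2 or in the list of both. The sta gene, which encodes a small-subunit ribosomal protein, had 53.9 in replicate 2 and 33.9 in replicate 3, rank 2088 and 2648. Their sum of 87.7 is above the lowest IDR signal, but the nearest relaxed summit of both replicates was 1598 bp from its TSSs. RpL36A had 32.2 in replicate 2 alone. Counts that rest on the list of both therefore leave RpL14 and sta out, and the reason these peaks are missing there was not tested.

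Genes for the proteins that act with snoRNAs were partly marked. Of 12 such genes in the list used, 5 had an IDR summit at a TSS (41.7%), set beside 12.3% of protein-coding and noncoding RNA genes. For box C/D particles, the fibrillarin gene Fib had 71.0 in replicate 2 and 56.9 in replicate 3, 128 for both, and nop5, the fly Nop58, had 51.2 and 35.3. Fib and nop5 each host 1 snoRNA of the unclassed group, so both count among the 32 hosts. Nop56 reached 31.4 and hoip, a protein that binds box C/D RNA, 28.9 for both replicates.

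For H/ACA particles, NHP2 had 69.6 in replicate 2 and 41.3 in replicate 3, and 109.97 for both. Gar1 and Nop10 had relaxed peaks of 37.4 and 36.0. Nop60B, the pseudouridine synthase, hosts 7 snoRNAs, and had 20.9 in replicate 2 and no relaxed peak within 500 bp in replicate 3 or in the list of both. Of the factors known to act in assembly or traffic, pont had 123 and 107, the highest of the list at 232 for both, and Nopp140 had 50.2 and 29.2. rept, the partner of pont, had 26.4 and 38.5 and reached 63.0, and Nufip reached 53.2. IDR peaks thus fell on Fib and nop5 for box C/D particles and on NHP2 alone for H/ACA particles. The summits at nop5 and NHP2 lay 328 and 260 bp from the TSS, outside a window of 200 bp.

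Promoters of hosts held some core promoter words more often than promoters at large. Words were searched from 250 bases before to 50 after the 5′ end of each gene, on both strands, in 17202 promoters. The word ATCGAT, the core of the DNA replication-related element, was in 27 of 82 host promoters (32.9%), in 12 of the 32 with an IDR peak (37.5%), in 20.7% of all and in 29.9% of all genes with an IDR peak. The word ACAGTG was in 19 hosts (23.2%), in 13.5% of all and in 20.5% of all genes with an IDR peak. GGTCACAC, from the element bound by M1BP, was in 10 hosts (12.2%), in 6.39% of all and in 11.5% of all genes with an IDR peak. TATAAA was in 33 hosts (40.2%), in 43.8% of all and in 47.2% of all genes with an IDR peak. Apart from TATAAA, the host shares of these words were thus near those of all genes with an IDR peak. Hosts with and without an IDR peak had ATCGAT in 37.5% and 30%, ACAGTG in 25% and 22%, and GGTCACAC in 12.5% and 12%. For TATAAA the shares were 37.5% and 42%. The word TTCTTT, which fits the pyrimidine-rich TCT initiator of ribosomal protein genes, was searched on the gene's strand within 10 bases of the start. It was in 10 hosts (12.2%), in 6 of the 32 with an IDR peak, namely RpL13A, RpL22, RpL28, RpL3, RpS5a and pths, in 0.965% of all promoters and in 1.46% of all genes with an IDR peak. Of these 6 hosts all but pths are ribosomal protein genes. Among the 50 hosts without an IDR peak 4 had it (8%). These words can overlap chance matches in AT-rich sequence, and a match is a description and not a binding site.

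Promoters of 5 hosts on the IDR list are shown to place the summit in its sequence. Each run is dm6, on the strand of the gene, from 120 bases before the TSS nearest the summit to 30 bases from it onward, with the 21 bases centred on the summit in capitals.
RpL28, chr3L:3222931-3223080, minus strand: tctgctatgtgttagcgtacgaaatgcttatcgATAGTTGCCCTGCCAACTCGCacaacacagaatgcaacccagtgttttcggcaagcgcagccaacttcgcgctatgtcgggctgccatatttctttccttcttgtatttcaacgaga
RpS12, chr3L:13023232-13023381, plus strand: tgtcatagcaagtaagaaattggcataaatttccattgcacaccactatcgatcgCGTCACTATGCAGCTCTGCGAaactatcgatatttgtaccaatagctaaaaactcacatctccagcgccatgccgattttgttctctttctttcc
RpL17, chrX:6744209-6744358, minus strand: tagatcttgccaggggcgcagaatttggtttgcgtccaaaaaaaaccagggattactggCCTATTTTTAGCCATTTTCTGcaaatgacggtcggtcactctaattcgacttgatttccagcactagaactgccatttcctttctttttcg
RpS5a, chrX:17148235-17148384, minus strand: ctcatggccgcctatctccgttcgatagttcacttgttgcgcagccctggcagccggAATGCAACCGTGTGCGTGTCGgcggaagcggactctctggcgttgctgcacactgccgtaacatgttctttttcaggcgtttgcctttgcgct
Uhg2, chr2L:9894974-9895123, minus strand: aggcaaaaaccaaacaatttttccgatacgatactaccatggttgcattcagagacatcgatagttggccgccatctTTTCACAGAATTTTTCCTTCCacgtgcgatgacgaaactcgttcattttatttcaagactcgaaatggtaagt
The word ATCGAT is in the windows of RpL28, RpS12 and Uhg2, and in neither of the others. The summits lie 77, 55, 51, 53 and 33 bp upstream of the TSS in the order shown.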

How the data were processed

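Peak lists on dm6 were used as deposited: relaxed lists for each replicate and for both replicates together, called against a control, and the IDR list, per the deposited lists of files. The sources used here do not name the aligner, peak caller or thresholds. Column 7 holds the signal of each peak as deposited by the authors, and column 9 the −log10 q-value, as deposited, which entered no result. Lists on dm3 were not used, since no dm3 annotation was given. The annotation was Ensembl release 115, and sequences were read from the Release 6 assembly, which dm6 also names. For each gene the highest signal with a summit within 500 bp was taken, with Python 3.11.15. Box C/D symbols start with Me, Or-CD, CD, U3, U14, U27, U29, U31, U49, U76 or snR38 after the colon, and H/ACA symbols with Psi or Or-aca. Named are hosts and snoRNAs with an IDR summit (1 host is counted but not reported by name here or drawn in the plots by host), the 5 strongest other hosts, the 5 hosts with the most snoRNAs, hostless snoRNAs with a relaxed summit of both replicates, and the snoRNP list. Hosts with a peak in a replicate alone and snoRNA:U3:9B were named after their values were seen. Ribosomal protein genes were taken by symbol (RpL, RpS and sta). The search was tested on simulated data. The members, lists and words were chosen with earlier results of these data known.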

Additional observations from a re-analysis of the deposited data

How the results depend on the processing

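The alternatives counting Or-ACA symbols as H/ACA and keeping host genes under 10 kb were chosen after seeing the data. snoRNA starts with an IDR summit numbered 3 with a window of 200 bp, 33 with 1000 bp, 3 among the 222 snoRNAs that lie over 500 bp from the host's TSSs or have no host (2 of the 3 have none), and 8 to 13 with a replicate left out. Starts with a relaxed summit numbered 49 and 174 with those windows, and from 86 to 114 when either replicate was dropped. The class difference at starts was 10.6 percentage points with 1000 bp and -1.82 to 3.54 with a replicate left out. With 200 bp it was -0.00804, from 1 start in each class, so that its sign rests on the class sizes. It turned sign among the 1352 IDR peaks of highest signal (-1.82) and with each host counted once (-0.238). At hosts it was 1.36 among the 1352 strongest IDR peaks and -6.97 to -2.25 with a replicate left out. snoRNP genes with an IDR summit numbered 3 with 200 bp and 2 among the 1352. For these values the cause was not tested, beyond the size of the window. Hosts with an IDR summit stayed within 23 to 37 in every alternative run. No paired analysis was possible because there is 1 group. Depth is unknown.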
